A study of Mus musculus with 96 samples.

Results

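Of the 15895 rows of the expression table, 84 were cytosolic ribosomal protein genes, chosen by symbol alone: 50 of the large subunit (Rpl and Rplp symbols) and 34 of the small subunit (Rps symbols and Rpsa). The samples were primary mouse embryonic fibroblasts of CF-1 mice at embryonic day 13, all of the same genotype, kept for 36 h in medium with 0.5% fetal calf serum (FCS) and then raised to 20% FCS at 0 h. PolyA RNA was sequenced as single 50-base reads in 2 time courses that the labels call Cycle 1 and Cycle 2. Cycle 1 had 63 libraries used here and ran until 38 h, and Cycle 2 had 32 and ended at 27 h. The 4 starved libraries, taken 1 h before serum and at 0 h in each Cycle, served as the controls, and 29 hours after serum were sampled in both Cycles. Each hour has 1 library per Cycle, and how many cultures or embryos each library came from is not given in the sources used here, so p-values measure only the spread between these libraries.

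The rule takes in a few rows that are not ordinary ribosome subunits. Rps19bp1 encodes a protein that binds Rps19, Rps4y2 is the table's name for an Rps4-like row, and Rpl7l1, Rpl22l1, Rpl36al, Rpl39l and Rps27l are paralogs of standard members. These 7 are described apart from the other 77. The listed paralogs Rpl3l, Rpl10l and Rps4l were not among the rows under those symbols. Fau, which encodes a ribosomal protein fused to a ubiquitin-like protein, lies outside the rule and is counted with related genes.

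Cytosolic ribosomes are built from ribosomal RNA and a fixed set of ribosomal proteins, and the mRNAs of these proteins are among the most abundant in growing cells. Their transcripts start with a run of pyrimidines, the terminal oligopyrimidine (TOP) motif, through which growth factor signalling by mTOR controls their translation, so that output can change while mRNA levels change little. Ribosome assembly also needs a separate group of nucleolar factors, many of them targets of Myc. Mammalian genomes carry many processed copies of ribosomal protein mRNAs, and a short read from such a gene can match several places.

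The level in the table differed by more than 3 orders of magnitude between members and was lower where more of the coding sequence was copied. Values are a normalized signal, with each library scaled to the same total. Here the coding sequence of each member was cut into all its 50-base windows, the length of a read, and each window was searched in the NCBIM37 genome, the build of the alignment. In 28 members every window had an identical copy elsewhere in the genome, and their mean signals had a median of 25.1, with a range from 2.19 to 476. In 40 members more than 50% but not all of the windows had one, with a median signal of 460. The other 15 with a match in the annotation had copies for 50% of windows or fewer, with a median of 2328. Per kilobase of transcript, the Spearman correlation between level and percent of copied windows was -0.792 over 83 members, given as a description only because members are not independent. How reads with several matches were counted is not given in the sources used here, and their part in the low values was not tested.

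The windows from the middle of 5 coding sequences show the difference at the ends of the range. Those of the 3 lowest members, Rps29 (chr12:70258709-70260173, minus strand), Rps23 (chr13:91062727-91064329, plus strand) and Rpl38 (chr11:114529838-114533645, plus strand), recur elsewhere with 1, 3 and 3 identical copies. Those of Rps3 (chr7:106626406-106632248, minus strand) and Rpl4 (chr9:64021194-64026369, plus strand), the 2 with the highest mean signal, have 0 copies elsewhere. The letters are from the NCBIM37 transcripts, in the direction of the mRNA, and no part is capitalised because the whole window is compared.
Rps29: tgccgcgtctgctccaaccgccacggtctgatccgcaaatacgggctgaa
Rps23: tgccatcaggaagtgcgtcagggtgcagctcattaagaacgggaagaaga
Rpl38: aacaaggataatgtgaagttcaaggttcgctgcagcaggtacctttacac
Rps3: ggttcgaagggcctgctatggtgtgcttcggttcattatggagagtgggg
Rpl4: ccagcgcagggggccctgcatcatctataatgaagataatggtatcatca

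**Figure D1:**
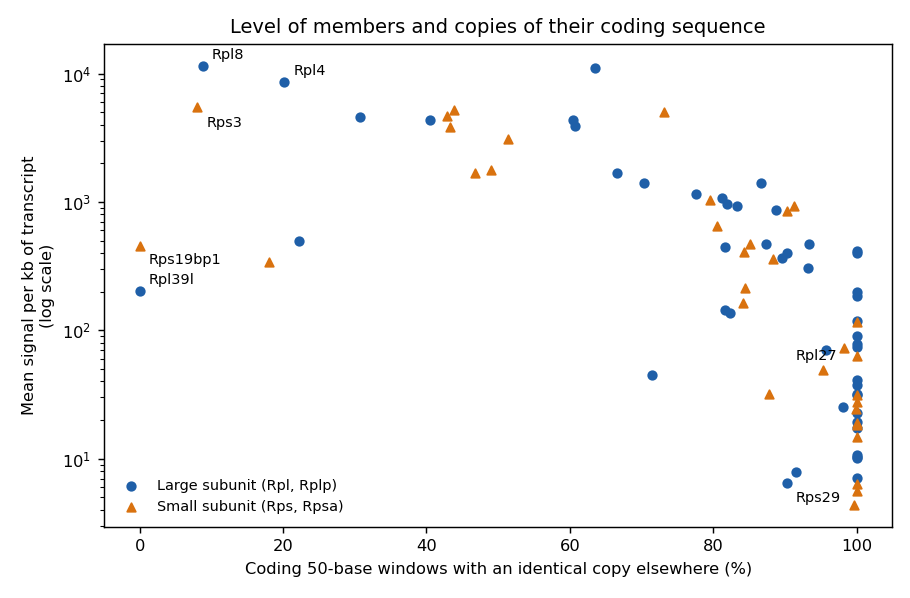
Mean signal per kilobase of transcript over all 95 libraries (vertical axis, log scale) against the percent of coding 50-base windows with an identical copy elsewhere in the genome, 1 point for each member shown. The members with all windows copied reach at most 411 per kilobase, while Rpl8, with 8.83% copied, stands at 11457.

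On the scale of signal per kilobase, Rpl8 was at 11457, Rpl4 at 8516 and Rps3 at 5521. At the other end Rps29, at 5.60 per kilobase, was listed at 0 in 16 of 95 libraries, and 11 members had a mean signal under 10. These low rows were still tested, but the median standard error of a log2 change was 0.24 for the 34 members with a mean under 100 and 0.13 for the 50 others at 25–27 h. Changes of the low rows thus rest on few reads.

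Depth, read back from the step between low values, was 5067432 to 14500279 reads per library. All 10 fibroblast markers were detected in every library, from Pdgfra at a mean signal of 2492 to Col1a2 at 64075. Markers of other types were lower but not absent, with Lyz2 of macrophages at a mean of 1243 and Des of muscle at 831. Lyz2 and Des were also detected in every library, so detection alone does not set the cell type. The summed signal of the 6 macrophage markers in the table, of 7 listed, was 1048 to 3311 in starved libraries, up to 4602 at 1–3 h and 580 to 2261 at 25–27 h. In starved libraries and at 25–27 h, the endothelial sum (4 markers) was 176–272 and 42.2–82.2, the epithelial sum (4 markers) 109–275 and 76.1–220, the muscle precursor sum (2 in the table) 510–1652 and 874–1245, and the 1 erythroid marker in the table, Alas2, 1.65–4.77 and 0–5.02. The epithelial sum was highest at 4–8 h, with a median of 422 against 188 in starved libraries. The fibroblast sum itself was 403610 to 569390 in starved libraries and 196599 to 208315 at 25–27 h. The part of these shifts in the results below was not tested.

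The summed signal of the members was a small share of all signal. It was 1.24% and 1.08% in the starved libraries of Cycle 1 and 0.834% and 0.866% in those of Cycle 2. At 25, 26 and 27 h it was 1.46%, 1.68% and 1.32% in Cycle 1 and 1.03%, 0.937% and 1.05% in Cycle 2, so that in each Cycle every library of this window lay above its own starved libraries. The share did not rise smoothly: in Cycle 1 it went from 1.12% at 5 h to 1.60% at 5.5 h and 1.06% at 6 h, and from 1.10% at 24 h to 1.72% at 24.5 h. These jumps were as large as the change after serum itself. The 78 rows of oxidative phosphorylation subunits jumped in the same libraries, from 0.584% to 0.805% and back to 0.591% around 5.5 h and from 0.800% to 1.10% at 24.5 h. What the jumps come from was not tested.

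**Figure D2:**
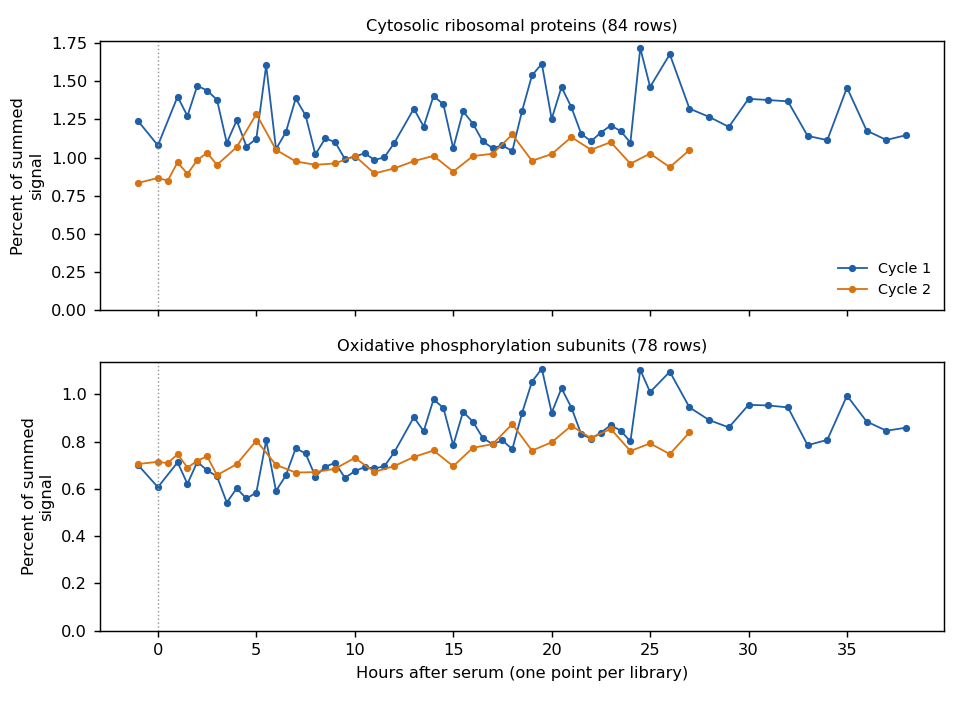
Share of the summed signal of each library (percent) held by the 84 members (top) and by 78 oxidative phosphorylation rows (bottom) against hours after serum, 1 point per library. Cycle 1 lies above Cycle 2 for the members at most shared hours but not at 5, 10 and 18 h, and the peaks of Cycle 1 at 5.5, 19.5, 24.5 and 26 h appear in both panels.

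Most members changed little at single hours. With limma on log2(signal + 1) and Cycle as a block, 20 of 84 members (23.8%) differed from starved at some shared hour at an adjusted p under 0.05, against 79.3% of all rows, and 8 members did so with a log2 change over 1, against 52.5% of all rows. Averaging the hours in windows gave more calls, nearly all upward. At 1–3 h 27 members were higher (background 14.1% of all rows) and 1 was lower (39.2%). At 4–8 h the counts were 18 higher (22.3%) and 3 lower (41.2%), and at 9–14 h 16 higher (24.9%) and 2 lower (36.3%). At 15–24 h 29 were higher (27.1%) and 0 lower (38.7%), and at 25–27 h 44 were higher (24.4%) and 0 lower (37.6%). As shares of the 84, the higher calls were 32.1%, 21.4%, 19%, 34.5% and 52.4%, so that those at 4–8 and 9–14 h were near or under the background.

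The changes themselves were small. The median log2 change of the members was 0.27, 0.19, 0.16, 0.23 and 0.38 in the 5 windows, against -0.26, -0.23, -0.14, -0.14 and -0.17 over all rows. Rows of low signal weigh on that comparison. With a mean signal of at least 100, the medians were 0.24, 0.18, 0.10, 0.16 and 0.33 for 50 members. For all 9112 such rows they were -0.20, -0.09, 0.01, 0.05 and 0.04. No member with a mean signal over 1000 changed by more than 0.80 in any window, and 29 of 84 members (34.5%) were called in no window, against 9.85% of all rows. The subunits did not stand apart in these counts: at 25–27 h 26 of 50 large subunit members (median 0.37) and 18 of 34 small subunit members (median 0.40) were called higher. By copy class, 13 of 28 members with all windows copied, 21 of 40 between, and 10 of 15 with 50% or fewer were called higher at 25–27 h.

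The number of calls depended on single libraries and on scaling. At 25–27 h the 44 higher calls became 29 without the 0 h library of Cycle 1, 27 without the 19 and 26 h libraries of Cycle 1, whose summed shares were high, and 28 without the Cycle term, and at 1–3 h the 27 became 16 without the 0 h library of Cycle 1. Scaling by TMM moved the median of all rows at 1–3 h from -0.26 to -0.04, and with it 67 members (79.8%) were called higher there, against 23.4% of all rows. At 4–8 h TMM gave 43 higher (51.2%, against 28.7% of all rows) and 1 lower (against 33.4%). In direction, both Cycles lay above their own starved mean for 70, 50, 45, 54 and 70 of 84 members in the successive windows. Both lay below it for 4, 8, 11, 5 and 0, and they lay on opposite sides for 10, 26, 28, 25 and 14. The same counts over all rows were not made, so this match cannot be read as particular to the members.

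**Figure D3:**
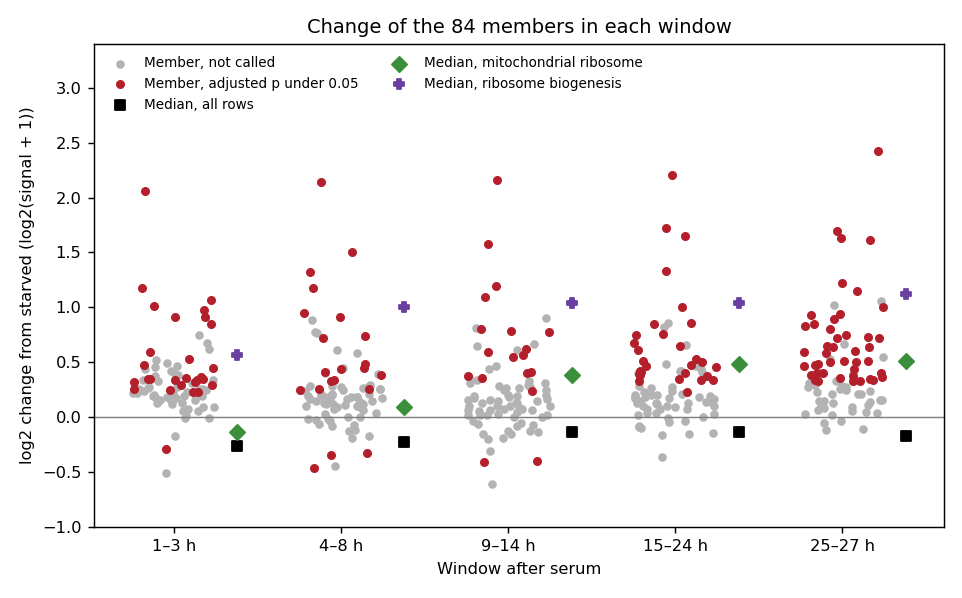
log2 change from starved cells of each member in 5 windows after serum (points, red where the adjusted p was under 0.05), with the median of all rows, of 75 mitochondrial ribosomal protein rows and of 28 ribosome biogenesis rows at the right of each column. The members gather between the median of all rows, -0.17 at 25–27 h, and that of the biogenesis factors, 1.13.

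Among the most abundant members only Rpl8 was called in every window. Rpl8, a core large subunit protein (chr15:76734501-76736748, plus strand), was at 8212 and 6920 in the starved libraries of Cycle 1 and 5924 and 6250 in those of Cycle 2. At 25, 26 and 27 h it was at 13296, 18911 and 12017 in Cycle 1 and 8665, 8180 and 9064 in Cycle 2. All 91 libraries after serum, 61 in Cycle 1 and 30 in Cycle 2, lay above both starved libraries of their own Cycle. The log2 change grew from 0.34 ± 0.12 (SE, adjusted p = 0.0163, limma) at 1–3 h to 0.72 ± 0.13 (adjusted p = 1.35e-05) at 25–27 h, where it was 0.57 without the 19 and 26 h libraries of Cycle 1.

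Rps3 and Rpl4, with higher mean signal, had smaller fitted changes. Rps3, which also acts in DNA repair, was at 10566, 9348, 7139 and 7707 in the starved libraries and at 13212, 14926 and 11771 in Cycle 1 and 9516, 8620 and 9567 in Cycle 2 at 25–27 h, a log2 change of 0.36 ± 0.11 (adjusted p = 0.00516, limma). At these 3 hours every value of Rps3 lay above both starved libraries of its Cycle.

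Rpl4 differed between the Cycles. It was at 13748 and 12731 in the starved libraries of Cycle 1. Its median over the 9–14 h libraries of that Cycle, which include 8.5 and 14.5 h, was 10389. At the shared hours of that window it lay 0.27 below starved in log2 mean. In Cycle 2 it started at 9060 and 9520 and had a median of 9960 in the same window, 0.11 above starved. The test of this difference over the 5 windows gave an adjusted p of 0.00162 (limma). Joined over both Cycles, Rpl4 was called in no window, though its change at 25–27 h passed with TMM scaling (0.339, adjusted p = 0.00859) and with median-of-ratios scaling (0.332, adjusted p = 0.0114). In all, the change after serum differed between the Cycles in 11 of 84 members (13.1%), against 32.6% of all rows. Over the shared hours alone it did so in 28 members (33.3%), against 31.8% of all rows, so the members' share under the background depended on which hours were used.

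The stalk proteins, which recruit elongation factors to the ribosome, were not alike in calls. Rplp2 was higher in all 5 windows, by 0.35 to 0.45 on the log2 scale. It was at 1634, 1354, 828 and 1008 in the starved libraries and at 2214, 1792, 1838, 1286, 1021 and 1159 at 25–27 h, with every value above the higher starved library of its Cycle. Rplp0, at 5852 on average, and Rplp1, at 5424, were called in no window, with changes of 0.15 ± 0.11 and 0.23 ± 0.15 at 25–27 h, but with TMM and with median-of-ratios scaling Rplp0 passed at 1–3 h (0.446 and 0.472) and Rplp1 at 4–8 h (0.415 and 0.421). Whether Rplp2 changed more than its partners was not tested.

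Members with roles outside translation had changes of unlike size. Rpl5 and Rpl11 bind Mdm2, the ubiquitin ligase of p53, when assembly fails. Rpl5 was called higher in 4 windows, with 0.36 ± 0.10 at 1–3 h and 0.39 ± 0.11 at 25–27 h. Rpl11, at a mean signal of 26.6, was called higher in 3, with 0.51 ± 0.22 at 25–27 h. Rpl23, which binds Mdm2 as well, rose at 1–3 h alone (0.25 ± 0.09) and was at 0.03 ± 0.10 at 25–27 h. Of the exon bases of Rpl5, 24.3% overlap those of Fam69a on the other strand, and counting took both strands, so reads of that gene cannot be told apart there.

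Rps6, the substrate of the S6 kinases, was at 91.7, 89.4, 82 and 83.2 before serum and at 117, 134, 119, 101, 91.8 and 95.9 at 25–27 h, which gave 0.33 ± 0.13 (adjusted p = 0.0288, limma). Rpsa, also known as a laminin receptor, at a mean signal of 45.4, rose by 0.60 ± 0.20 at 1–3 h and 0.83 ± 0.22 at 25–27 h. In the last window its 26 h library of Cycle 1 stood at 107, with the others from 36.1 to 70.3. Rps19, mutated in Diamond-Blackfan anaemia, rose by 0.64 ± 0.19 at 25–27 h, but its 26 h library of Cycle 1 stood at 1438 while the other 5 lay between 346 and 674. Rps14, another small subunit core protein, rose by 0.35 ± 0.13 at 1–3 h alone. Rpl13a, the large subunit protein that interferon-gamma can release from the ribosome, rose at 25–27 h alone (0.33 ± 0.13), and 34.3% of its exon bases lie in exons of Flt3l on the same strand. Rps27a, made as a fusion with ubiquitin, rose at 15–24 h (0.46 ± 0.19) and 25–27 h (0.65 ± 0.23) in the joint fit, but the Cycles differed (adjusted p = 0.0251, limma), with 1.24 in Cycle 1 and 0.06 in Cycle 2 at 25–27 h. In Cycle 2 its values there, 23.9, 14.9 and 17.1, overlapped the starved 18.6 and 16.5.

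The largest rises among standard members belonged to rows of low signal. 9 members (10.7%) were called higher in all 5 windows, against 6.88% of all rows, and 6 of them had a mean under 100. Rpl12, part of the stalk base (chr2:32817079-32820016, plus strand), was at 18, 20.1, 21.9 and 21.4 in the starved libraries. At 1–3 h it ranged from 28.9 to 68.3 in Cycle 1 and from 29.8 to 57.9 in Cycle 2, with no overlap with the starved values. At 25–27 h it was at 76.7, 81, 64.3, 72.2, 54.3 and 44, and the log2 change was 1.61 ± 0.14 (adjusted p = 2.86e-11, limma). In Cycle 1 the signal was back at 26.4 at 38 h.

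Rpl27 (chr11:101303612-101306843, plus strand) started at 9.02 and 11.9 in Cycle 1 and at 20 and 23.1 in Cycle 2. At 25–27 h it was at 70.2, 49.3 and 46.2 in Cycle 1 and 46.8, 45.1 and 39.1 in Cycle 2, and all 91 libraries after serum lay above both starved libraries of their Cycle. The joint change was 1.64 ± 0.21, made of 2.28 in Cycle 1 and 0.99 in Cycle 2, and the Cycles differed (adjusted p = 0.0127, limma). Of the 6 libraries at 25–27 h, the 25 h library of Cycle 1 stood apart, with the others between 39.1 and 49.3.

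Rpl10a (chr17:28465416-28467977, plus strand), a protein of the ribosome's L1 stalk, was at 40.6, 33.7, 22.9 and 40.4 in starved cells. By 1–3 h its median was 77 in Cycle 1 and 57.3 in Cycle 2, a change of 0.84 ± 0.15, and at 25–27 h the change was 0.93 ± 0.17. It reached its highest value in Cycle 1, 95, at 2.5 h and its highest in Cycle 2, 86, at 5 h, and in Cycle 1 it was at 18.8 at 38 h, under both starved values. For Rpl12, Rpl27 and Rpl10a every coding 50-base window has an identical copy elsewhere, in 16, 11 and 5 places in the genome.

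Rpl35 and Rpl36a had large fitted changes on few reads. Rpl35 was listed at 0, 0.912, 0.954 and 1.65 before serum and at 11.9, 14.1, 4.02, 9.76, 9.18 and 5.87 at 25–27 h, a log2 change of 2.42 ± 0.29 on the log2(signal + 1) scale, which depends on the added 1 and is not a fold. Of its exon bases 66.2% overlap Wdr38 on the other strand. Rpl36a was at 1.50, 0.912, 0.954 and 0.824 before serum and at 7.57, 3.52, 9.04, 3.90, 3.83 and 7.83 at 25–27 h, with no overlap between the groups. The change of Rpl36a was 1.70 ± 0.40 (adjusted p = 0.000537, limma). Rps16, at a mean of 12, and Rps10, at 132, were the other members called higher in every window, with 1.00 ± 0.31 and 0.64 ± 0.18 at 25–27 h.

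**Figure D4:**
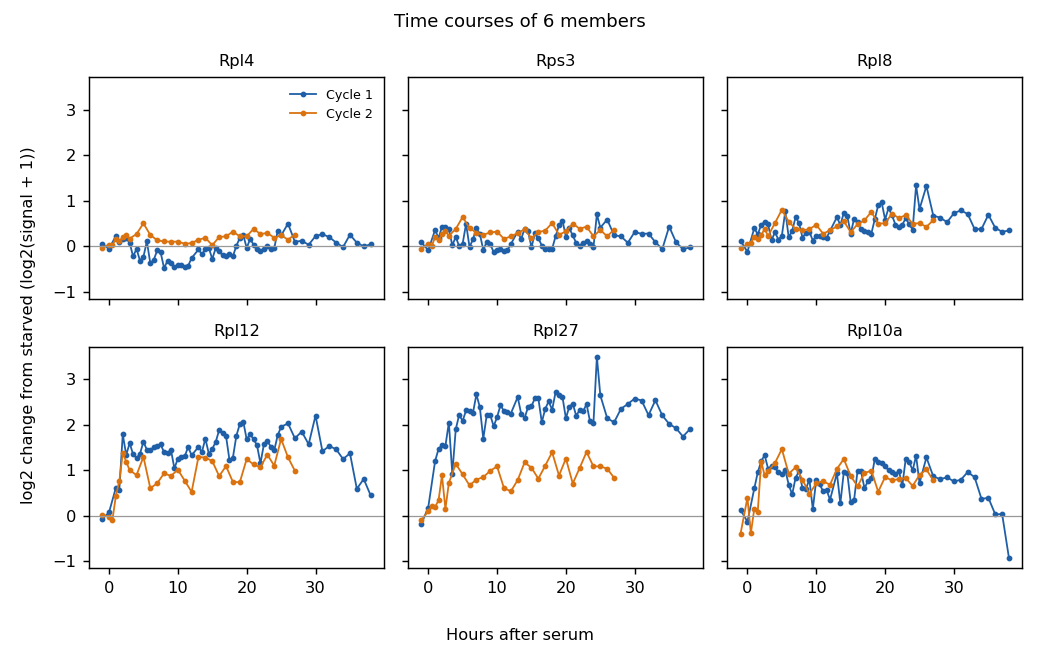
log2 change of 6 members from the starved libraries of the same Cycle (vertical axis, log2(signal + 1)) against hours after serum, 1 point per library. Rpl4 and Rps3 stay closest to 0, Rpl8 climbs slowly, and Rpl12, Rpl27 and Rpl10a have left the starved level within the first hours.

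3 members were called lower at some time, and none of them at 15–24 or 25–27 h. Rpl15, a large subunit core protein, was at 436, 351, 384 and 352 before serum and had a median of 303 in Cycle 1 and 262 in Cycle 2 at 4–8 h. It fell by 0.29 ± 0.08 at 1–3 h and by 0.47 ± 0.08 at 4–8 h (adjusted p = 9.61e-06, limma), and its change was 0.11 ± 0.09 at 25–27 h. Rpl27a fell by 0.32 ± 0.11 at 4–8 h and by 0.40 ± 0.11 at 9–14 h and was at 0.02 ± 0.12 at 25–27 h, when its 3 libraries of Cycle 2, at 413, 354 and 371, were still under both starved libraries of that Cycle. Rpl22l1 fell by 0.35 ± 0.11 and 0.41 ± 0.11 in the same windows, with the lowest joint hour at 11 h. With TMM scaling the change of Rpl15 at 1–3 h was -0.06 and no longer called (adjusted p = 0.56, limma). With that scaling Rpl15 alone was still called lower at 4–8 h (-0.31), and Rpl22l1 and Rpl27a were still called lower at 9–14 h (-0.33 and -0.32) but were called higher at 1–3 h (0.36 and 0.38).

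None of the 7 rows outside the standard set, the paralogs, Rps4y2 and Rps19bp1, was called at 1–3 h. Of all rows, 14.1% were called higher there and 39.2% lower. In each of the 9–14, 15–24 and 25–27 h windows 6 of 7 were called higher, against 24.9%, 27.1% and 24.4% of all rows. The median log2 change of the 7 was 0.72 in the last window. Of the 77 standard members, 27 (35.1%), 10 (13.0%) and 38 (49.4%) were called higher at 1–3, 9–14 and 25–27 h. Their share at 9–14 h was under the 24.9% of all rows. The median of the 77 was 0.36 at the latest hours. The division into 7 and 77 was made with the values known, and no test of the difference was run.

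Rps27l, a p53 target that resembles Rps27, was at 541, 498, 740 and 681 in starved cells. Its change was 0.12 ± 0.14 at 1–3 h and 0.37 ± 0.14 by 9–14 h. It reached 0.75 ± 0.15 (adjusted p = 7.48e-05, limma) in the last window, when it stood at 1344, 812, 1227, 961, 870 and 1008. The rise was 1.09 in Cycle 1 and 0.41 in Cycle 2 in that window, and the Cycles differed (adjusted p = 0.0281). Rps27 itself, with all windows copied, was at a mean of 10.8 and was called in no window, though with TMM and with median-of-ratios scaling it passed at 1–3 h (0.548 and 0.571). The level of Rps27l per kilobase was 1766 and that of Rps27 was 31.2.

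Rpl7l1, a paralog of Rpl7, was at 794, 657, 903 and 795 before serum. It did not pass the test at 1–3 h (0.19 ± 0.09, adjusted p = 0.0893, limma) and rose by 0.72 ± 0.09 at 4–8 h and 0.80 ± 0.10 at 25–27 h. From 4 h to 27 h every library stood at 1081 or higher, with the starved libraries at 903 or less. Rpl7 was at 1511, 1369, 1041 and 1096 before serum and at 1652, 2021, 1565, 1256, 1116 and 1167 at 25–27 h, and was called in no window, though its change at 25–27 h passed with TMM (0.299) and with median-of-ratios scaling (0.292).

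Rpl22l1, the paralog of Rpl22, went the other way for a time. At 9–14 h its median was 343 in Cycle 1, from 546 and 514 before serum, and 372 in Cycle 2, from 427 and 528. Rpl22, whose product is known to repress Rpl22l1, had changes of -0.19 ± 0.10 in both the 4–8 h and 9–14 h windows, which did not pass the test (adjusted p = 0.0897 and 0.0878, limma). Both were near their starved level at 25–27 h, at 0.08 ± 0.12 for Rpl22l1 and 0.05 ± 0.11 for Rpl22.

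Rpl36al, Rpl39l, Rps4y2 and Rps19bp1 were higher at 25–27 h as well. Rps19bp1 (0.74), Rps4y2 (0.38) and Rpl36al (0.33) were already called higher at 4–8 h, and Rps4y2 was at its highest at 9–14 h (0.59). Rpl36al was at 162, 121, 162 and 177 before serum and at 319, 255, 309, 193, 227 and 247 at 25–27 h, with no overlap and a change of 0.72 ± 0.15. Rpl39l changed by 0.50 ± 0.12 and Rpl39, its standard counterpart, by 0.07 ± 0.17. Rps19bp1 was at 242, 175, 214 and 234 before serum and at 580, 662, 421, 304, 288 and 351 at 25–27 h, a rise of 0.94 ± 0.16. Rps4y2 rose by 0.47 ± 0.14. Rps4x, the X-linked standard protein, was at 0.06 ± 0.12 in the joint fit, but the Cycles differed (adjusted p = 0.00156, limma). At 25, 26 and 27 h Rps4x was at -0.10, -0.25 and -0.02 in Cycle 1 and 0.36, 0.07 and 0.29 in Cycle 2. Rpl3 and Rpl10 were at 0.59 ± 0.17 (adjusted p = 0.00281, limma) and -0.11 ± 0.18 (adjusted p = 0.624).

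**Figure D5:**
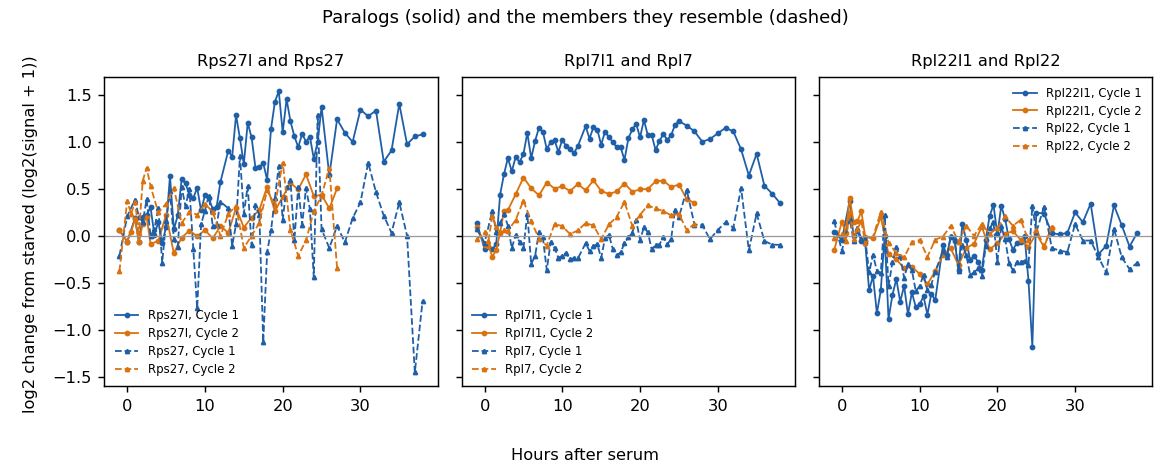
log2 change of 3 paralogs (solid lines, circles) and of the standard members they resemble (dashed lines, triangles) from the starved libraries of the same Cycle against hours after serum. Rpl7l1 and Rps27l climb in both Cycles while Rpl7 stays near 0 and Rps27 scatters around it, and Rpl22l1 dips and returns.

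All 28 listed ribosome biogenesis genes were called higher at 25–27 h, against 24.4% of all rows. At 4–8 h it was 27 of 28, against 22.3% of all rows. Their medians in these windows were 1.13 and 1.01, against 0.38 and 0.19 for the members. Ncl, the nucleolar protein nucleolin, rose by 0.80 ± 0.16 at 4–8 h and by 1.38 ± 0.18 at 25–27 h, and Rrs1, an assembly factor of the large subunit, by 1.35 ± 0.14 and 1.33 ± 0.15. Of the 75 mitochondrial ribosomal protein rows, 1 was higher (1.33%, against 14.1% of all rows) and 21 lower (28.0%, against 39.2%) at 1–3 h. Both shares lay under those of all rows, while 27 cytosolic members (32.1%) were higher in that window. At 25–27 h 57 mitochondrial rows were higher (76.0%, against 24.4%) and 0 lower (against 37.6%), with a median of 0.51. Of 21 other mRNAs with a known TOP start or ribosome role, 6 were higher at 1–3 h (28.6%, against 14.1%). At 25–27 h 12 were higher (57.1%, against 24.4%) and 1 lower (4.76%, against 37.6%), with a median of 0.33 for the 21. Among them Fau, at a mean of 69.4, rose by 1.13 ± 0.17. Gnb2l1, which encodes the ribosome-bound scaffold Rack1, was at 0.26 ± 0.12 and did not pass the test (adjusted p = 0.0552, limma).

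At the annotated starts a pyrimidine run, as in a TOP motif, was found in some members and not in others. The count depends on where the start is annotated, so a member without a run there is not shown to lack the motif. Whether the annotated starts are those used in these cells was not tested. RefSeq start windows (GRCm38.p6, another build than the alignment's) were found for 63 of 84 members, from 250 bases before to 50 bases after each annotated start. A run of 5 or more C or T letters covering the start was present in 20 of the 63 members (31.7%), against 11.8% of 27025 genes. CTTTC lay within 15 bases of the start in 27% of members and 4.76% of genes, CTTTT in 9.52% and 3.68%, and CTTCC in 20.6% and 7.83%. In the whole window CCGGAA, on either strand, was in 55.6% of members and 16.7% of genes, TATAA in 25.4% and 20%, CACGTG in 9.52% and 8.09%, and AAGATGGC, on either strand, in 9.52% and 3.19%. A gene with several annotated starts counts as holding a motif when any of them does, and the motifs can overlap one another.

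The pair Rps27 and Rps27l, of which only the paralog was called on the deposited scale, is shown with Rpl35, which had the largest rise, as the 15 bases before and the 15 bases from the annotated start. Capitals mark the pyrimidine run that covers the annotated start, and the window without capitals has no run of 5 letters or more there. The windows are chr3:90213634-90213663 (minus strand) for Rps27, chr9:66946071-66946100 (plus strand) for the more upstream annotated start of Rps27l, and chr2:39005117-39005146 (minus strand) for Rpl35.
Rps27: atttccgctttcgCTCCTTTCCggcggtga
Rps27l: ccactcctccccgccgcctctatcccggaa
Rpl35: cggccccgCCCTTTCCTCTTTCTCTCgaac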

How the data were processed

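Reads were aligned by the authors with STAR to mm9 and counted on exons of either strand with HOMER, after base calling with CASAVA. The deposited values are a normalized signal per gene, scaled to the same total in each library. 1 of the 96 columns was not used, since no sample has its name. Between 94.2% and 96.2% of low values were whole multiples (within 0.1) of the value of 1 read, which gave the depth. Signals were tested as log2(signal + 1) with limma 3.58.1 in R 4.3.3 (trend and robust off), with hour as group and Cycle as block, over the 4 starved libraries and 29 shared hours, with Benjamini-Hochberg adjustment over all 15895 rows. Windows are means of hour coefficients minus starved. Hours 28–38 (Cycle 1) and 0.5 h (Cycle 2) have no replicate and are given as values. Differences between Cycles were tested as a window by Cycle interaction over all libraries of the windows, where neighbours in time stand in for replicates. edgeR 4.0.16 on recovered reads was an alternative. It left out the starved library of Cycle 1 taken 1 h before serum and the 18 h libraries of both Cycles, so its samples differ as well. The Cycle numbers in the labels pair the libraries: over 406 pairs of hours, the correlation of their deviations had a median of 0.44. On simulated data for 25–27 h with 15895 rows, limma recovered 99 of 100 planted 2-fold changes but 3 of 100 planted 1.23-fold changes. It called 0 unchanged rows. Changes were planted, and calls counted, only in rows with a mean signal of at least 100. The simulated noise was independent between libraries, so jumps that many rows share in 1 library are not covered, nor are the low rows.

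In bulk RNA, fewer cells of a type and less RNA per cell cannot be told apart. The members and gene lists were chosen with earlier results of these data known. The members named are those with the largest called rise and fall per window, the 5 highest and 5 lowest, the listed paralogs and members of known role, and the 5 with the smallest p of the Cycle difference. Rpl12, Rpl27, Rpl10a, Rpl27a, Rps19bp1, Rps10, Rps16 and Rps4y2 were named after their values were seen. Some genes that these rules or lists take in are not reported here by name. Tables and figures were made in Python 3.11.15 with matplotlib 3.10.9.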

Additional observations from a re-analysis of the deposited data

Results flagged for a closer look

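In 3 of 100 groups of libraries checked, 1 library lay far from the others by Dixon's criterion, and chance alone gives about 1 in 20. Rps19 was at 1438 in the 26 h library of Cycle 1, with the other 5 libraries of 25–27 h between 346 and 674. Rpl27 was at 70.2 in the 25 h library of Cycle 1, with the others between 39.1 and 49.3. Rpl38 was at 7.31 in the starved library of Cycle 2 taken 1 h before serum, with the other 3 between 0.912 and 1.65, which are a few reads each.

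The change after serum differed between the Cycles in 11 of 84 members (13.1%, limma interaction, adjusted p under 0.05), against 32.6% of all rows, and over the shared hours alone in 28 (33.3%), against 31.8% of all rows. Adjusted p was 0.00156 for Rps4x, 0.00162 for Rpl4, 0.00212 for Rplp0, 0.00246 for Rps7, 0.00375 for Rps2 and 0.00546 for Rpl7. It was 0.0127 for Rpl27, 0.0209 for Rpl7l1, 0.0225 for Rpl38, 0.0251 for Rps27a and 0.0281 for Rps27l. Rpl4, Rpl7, Rplp0 and Rps4x had lower log2 changes in Cycle 1 than in Cycle 2 at 9–14 h, at -0.27, -0.17, -0.08 and -0.33 against 0.11, 0.09, 0.17 and -0.06. Rpl7l1, Rps27l, Rpl27 and Rps7 had higher ones in Cycle 1 at 15–24 h, at 1.01, 0.97, 2.38 and 1.04 against 0.51, 0.39, 1.08 and -0.16. The starved level of Rps7 differed as well, at 19.5 and 31.9 in Cycle 1 and 41 and 42 in Cycle 2.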

How the results depend on the processing

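The number of members called depended on the setting. Each named member was followed in its window of smallest adjusted p. Over the alternatives, 700 values kept their side of the threshold, 79 lost significance and 42 gained it. The 700 include members not called in the main fit that stayed uncalled. A change of direction was looked for only in members called in the main fit, with 0 found. Without the replicate block (the Cycle term), 11 members were changed at the shared hours, and 9, 10 and 28 were higher at 1–3, 4–8 and 25–27 h and 1 lower at 9–14 h. Pseudocount 10 left 5 with a log2 change over 1. TMM gave 37 changed, 67 higher and 0 lower at 1–3 h, and 43 higher and 1 lower at 4–8 h, and median-of-ratios factors gave 39, 68, 0, 45 and 1. Window means per Cycle as the only replicates gave 6, 8, 10, 14 and 26 higher in the 5 windows and 0, 1 and 0 lower in the first 3. All libraries by window gave 0 lower at 1–3 h. Cycle 1 alone gave 10 and 11 higher at 1–3 and 4–8 h, and 0, 4 and 1 lower at 1–3, 9–14 and 15–24 h, and Cycle 2 alone 7, 34 and 16 higher at 1–3, 4–8 and 25–27 h and 1 lower at 4–8 h. Without the 19 and 26 h libraries of Cycle 1, an alternative chosen after seeing the data, 27 were higher at 25–27 h. Cycle differences over shared hours alone numbered 28. Leaving out each starved library in turn gave 17–19 members changed at the shared hours, 16–25, 12–17, 13–17, 19–26 and 29–41 higher in the 5 windows, and 7–11 Cycle differences, with the lowest of these higher counts in every window without the 0 h library of Cycle 1. As a share of all signal, the summed members had a mean of 1.49% at 25–27 h and 1.16% in starved libraries in Cycle 1. In Cycle 2 these were 1.00% and 0.85%. Taken instead as a multiple of the median row, the summed signal at 25–27 h over starved was 1.57 in Cycle 1 and 1.33 in Cycle 2.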

Other observations

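The 10 rows outside the rule whose course was most like the mean log2 change of the members over all 95 libraries were named by that measure. Pearson's r, given as a description without a test, was 0.886 for Shfm1, a proteasome subunit, 0.872 for Uqcrh and 0.853 for Ndufa2, both of the respiratory chain, 0.852 for Ywhaz and D8Ertd738e, 0.849 for Nme2, 0.848 for Naca, 0.845 for Cox6a1, 0.839 for Eif3k and 0.838 for Sod1. All 95 points come from the same 2 Cycles, and libraries next to each other in time are not independent. Naca belongs to the nascent polypeptide-associated complex and Eif3k is a subunit of an initiation factor. Among themselves, the members correlated with the mean of the other members with a median r of 0.552 and a range from 0.0547 to 0.891, and with a median of 0.637 for the 50 with a mean signal of at least 100 and 0.504 for the 34 others.

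Of the 17 listed regulators of growth and ribosome biogenesis, 4 were called higher (23.5%, against 14.1% of all rows) and 9 lower (52.9%, against 39.2%) at 1–3 h. At 25–27 h 4 were higher (23.5%, against 24.4%) and 1 was lower (5.88%, against 37.6%). Myc, the transcription factor that drives ribosome biogenesis genes, rose by 2.05 ± 0.23 at 1–3 h and 1.41 ± 0.23 at 4–8 h and was at 0.39 ± 0.25 at 25–27 h (limma). Mdm2, which Rpl5 and Rpl11 bind, rose by 0.86 ± 0.11 at 1–3 h. Larp1, which binds TOP mRNAs, was at -0.14 ± 0.10 at 1–3 h and rose by 0.74 ± 0.11 by 25–27 h. Among the 9 lower at 1–3 h, Mtor fell most, by 0.82 ± 0.09, and Rps6kb1, an S6 kinase, fell by 0.41 ± 0.09. At 25–27 h they were at 0.11 ± 0.10 and -0.03 ± 0.09. Of the 78 oxidative phosphorylation rows, 1 was higher (1.28%, against 14.1% of all rows) and 4 lower (5.13%, against 39.2%) at 1–3 h. At 25–27 h 28 were higher (35.9%, against 24.4%) and 8 lower (10.3%, against 37.6%). Their medians were 0.01 and 0.22.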
